A study of Mus musculus with 88 samples.

Results

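The genes described here are 4 tropomyosins (Tpm1, Tpm2, Tpm3 and Tpm4), 3 muscle actins (Acta1, Acta2 and Actc1) and the 2 alpha-actinins of muscle (Actn2 and Actn3). They were chosen by symbol in the gene annotation deposited with the counts, which named all 9 among 24453 genes. The study took RNA from mice lacking Cdh15, the gene of M-cadherin, an adhesion protein of muscle precursor cells, and from wild type mice. The KO group and the WT group were each 5 male C57BL/6NTac mice, 65 to 85 days old and fasted for 18 h before the tissues were taken. The labels do not say which part of Cdh15 the KO allele lacks. Polyadenylated RNA was sequenced as strand-specific libraries from 9 tissues of each mouse. The tissues were 4 hindlimb muscles (EDL, gastrocnemius, soleus and tibialis), heart, kidney, liver, lung and spleen. WT kidney and WT spleen had 4 libraries each and every other group had 5, which gave 88 libraries with total counts of 8205964 to 25144410. Each library came from another piece of tissue, and each replicate of a group from another mouse.

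The thin filament of the sarcomere is a strand of actin along which tropomyosin lies end to end. Troponin moves tropomyosin on the filament when calcium rises, which opens the sites that myosin binds. Alpha-actinin ties the ends of thin filaments from neighbouring sarcomeres together at the Z-disc. The families use different genes in different muscles: Acta1 is the actin of adult skeletal muscle, Actc1 that of the heart and Acta2 that of smooth muscle. Among tropomyosins, Tpm3 encodes the form of slow skeletal fibres and also shorter cytoplasmic forms, made from a separate start within the gene. Actn2 is made in all skeletal fibres and in heart, and Actn3 in fast skeletal fibres.

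Because the 3 actins encode nearly the same protein but are expressed in different tissues, their promoters and the first 90 bases of their coding sequences are shown. The Tpm3 promoters are shown because Tpm3 set the soleus apart from the other muscles most clearly. Promoter sequences are from RefSeq (GRCm38.p6), run 5′ to 3′ on the strand of the gene and hold 250 bases before the start site and 50 bases after it. Capitals mark the CArG box, which serum response factor binds and which starts with CC, ends with GG and holds only A or T between them. Capitals also mark runs of that length with CC and GG in place and 1 base of the A and T core replaced, called core mismatches here. Runs with a mismatch in the CC or GG were not searched for.
Acta1, chr8:123894726-123895025, minus strand: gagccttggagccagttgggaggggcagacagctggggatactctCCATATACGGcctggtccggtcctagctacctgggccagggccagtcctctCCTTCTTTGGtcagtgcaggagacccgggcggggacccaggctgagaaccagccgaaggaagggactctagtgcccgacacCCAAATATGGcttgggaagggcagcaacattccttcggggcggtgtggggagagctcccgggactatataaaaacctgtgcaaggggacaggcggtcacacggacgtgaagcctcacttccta
Actc1, chr2:114052826-114053125, minus strand: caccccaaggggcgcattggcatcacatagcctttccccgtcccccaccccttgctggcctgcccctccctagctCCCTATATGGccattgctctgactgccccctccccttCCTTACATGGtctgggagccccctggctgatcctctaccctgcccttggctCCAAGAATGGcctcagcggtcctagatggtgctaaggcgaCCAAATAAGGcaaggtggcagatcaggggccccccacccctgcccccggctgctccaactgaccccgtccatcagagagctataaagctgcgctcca
Acta2, chr19:34255324-34255623, minus strand: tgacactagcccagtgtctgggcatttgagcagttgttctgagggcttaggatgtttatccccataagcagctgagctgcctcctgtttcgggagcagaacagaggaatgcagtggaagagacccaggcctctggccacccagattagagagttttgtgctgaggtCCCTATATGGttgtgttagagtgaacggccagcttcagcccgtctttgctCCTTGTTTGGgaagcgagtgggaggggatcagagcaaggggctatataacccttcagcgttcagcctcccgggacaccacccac
Tpm3 upstream start, chr3:90072401-90072700, plus strand: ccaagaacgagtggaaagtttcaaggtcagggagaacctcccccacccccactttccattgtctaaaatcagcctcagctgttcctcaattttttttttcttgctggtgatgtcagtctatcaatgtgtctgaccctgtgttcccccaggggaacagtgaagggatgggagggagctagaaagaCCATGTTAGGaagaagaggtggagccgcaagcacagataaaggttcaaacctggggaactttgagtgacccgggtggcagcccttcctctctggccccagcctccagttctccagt
Tpm3 downstream start, chr3:90079271-90079570, plus strand: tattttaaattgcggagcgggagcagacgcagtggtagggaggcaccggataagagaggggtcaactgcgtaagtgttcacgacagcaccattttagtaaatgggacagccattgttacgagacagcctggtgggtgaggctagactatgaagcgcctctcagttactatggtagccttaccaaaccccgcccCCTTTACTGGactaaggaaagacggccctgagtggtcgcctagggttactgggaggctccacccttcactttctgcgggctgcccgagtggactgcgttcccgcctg

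An exact CArG box began 73 bases upstream of the RefSeq start of Acta1 and 47 bases upstream of that of Actc1. The deposited Actc1 annotation starts at 114052811 on the minus strand, downstream of the whole printed window (114052826-114053125). Distances given for Actc1 are from the RefSeq start. Of 32851 RefSeq promoters of this length, 1.63% held an exact box and 8.5% a core mismatch, on either strand. Core mismatches began 205 and 154 bases upstream in Acta1, 175, 138 and 87 bases upstream in Actc1, and 84 and 34 bases upstream in Acta2. The upstream Tpm3 promoter held such a match 66 bases upstream of its start and the downstream promoter 57 bases upstream. No exact box or core mismatch was found in the windows of Actn2, Tpm1, Tpm2 and Tpm4, and Actn3 had no entry. The motif CATTCCT (MCAT, both strands), which TEAD factors bind, was present in the windows of Acta1, Acta2 and Tpm1 and in 5.36% of all promoters. No MEF2 consensus was found in the members' windows, against 3.19% of all promoters.

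The coding sequences of the actins start as follows, with capitals at the 26 positions where the 3 differ.
Acta1, chromosome 8: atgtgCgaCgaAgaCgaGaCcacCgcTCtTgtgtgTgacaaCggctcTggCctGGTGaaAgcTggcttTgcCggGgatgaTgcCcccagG
Actc1, chromosome 2: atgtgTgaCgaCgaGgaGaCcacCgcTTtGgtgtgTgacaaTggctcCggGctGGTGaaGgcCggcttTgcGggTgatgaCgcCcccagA
Acta2, chromosome 19: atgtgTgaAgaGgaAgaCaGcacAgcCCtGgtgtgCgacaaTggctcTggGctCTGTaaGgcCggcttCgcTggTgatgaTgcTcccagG
Over the 1134 coding bases, Acta1 was identical to Actc1 at 86.2%, Acta1 to Acta2 at 85.4% and Acta2 to Actc1 at 82.5% of positions. The longest identical run between any pair was 29 bases, which is shorter than the 50-base windows used to look for shared sequence. No window of Actc1, Tpm1 or Tpm2 was found in another gene, and Actn2 and Actn3 shared 2 windows with each other. Acta1 shared 31 of 1397 windows (2.22%) with 10 other genes, 28 of them with Actb. Acta2 shared 7 of 1986 windows with 6 other genes, Actg1 among them. For Tpm3, 39.0% of the windows (406 of 1041) also lay in another gene, chiefly Tpm3-rs7, and for Tpm4 12.1% (251 of 2079) lay in Gm7809. Levels of Tpm3 and Tpm4, and low levels of Acta1 and Acta2, are therefore uncertain by the reads that such sequences could take or give. The deposited Tpm3 annotation (mm10, chr3:90079521-90098783, plus strand, 8 exons) begins at the downstream start. Of 7 coding transcripts of Tpm3 in GENCODE vM21, 2 begin upstream of it, the first 6872 bases upstream. The sources used here do not say whether reads in those upstream exons were counted.

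On mm10, Tpm1 lies at chr9:67022593-67049213 (minus strand, 9 exons), Tpm2 at chr4:43513726-43523554 (minus, 9 exons) and Tpm4 at chr8:72135292-72153129 (plus, 8 exons). The actins lie at chr8:123891758-123894775 (Acta1, minus, 8 exons), chr2:114047289-114052811 (Actc1, minus, 7 exons) and chr19:34240336-34255373 (Acta2, minus, 9 exons). The actinins lie at chr13:12269427-12340732 (Actn2, minus, 21 exons) and chr19:4861216-4877909 (Actn3, minus, 21 exons).

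Levels of 1 gene are compared between libraries as CPM, the count scaled to the library's total, and levels of different genes as the RPKM values that the authors deposited, which take gene length into account. Together the 9 genes held 4.45% of all counts in KO gastrocnemius and 4.47% in WT gastrocnemius, the highest shares. In heart they held 1.09% in KO and 1.08% in WT, in lung 0.163% and 0.166%, and in liver 0.00975% and 0.01%. In a bulk tissue sample, fewer cells of a type and less RNA per cell cannot be told apart.

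Tpm1, the main tropomyosin of heart and fast fibres, averaged 11776 CPM in KO and 12054 CPM in WT gastrocnemius, above every other tissue. Tibialis, EDL and soleus followed in that order in both genotypes, between 5469 and 9189 CPM in KO and between 8032 and 8913 CPM in WT, and the ranges of EDL and soleus overlapped in both. Heart averaged 5294 CPM in KO and 5366 CPM in WT mice. Of the inner organs, lung had the most (302 CPM in KO, 319 CPM in WT) and liver the least (19.2 CPM in KO, 19.6 CPM in WT), and the 4 organs did not overlap.

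Tpm2, the beta tropomyosin of skeletal muscle, was highest in KO soleus at 6667 ± 693 CPM and in WT EDL at 5568 CPM, with WT soleus at 5121 ± 1177 CPM (SD, n = 5 each). In WT mice, EDL and soleus overlapped, as did soleus and tibialis. Gastrocnemius was the lowest of the muscles in both genotypes (2688 CPM in KO, 2701 CPM in WT). Heart held only 41.5 CPM in KO and 37.7 CPM in WT, a level that overlapped with spleen.

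Tpm3 had an unlike order, with soleus first (1859 ± 888 CPM in KO, 887 ± 250 CPM in WT; SD, n = 5 each), then spleen (535 CPM in KO, 549 CPM in WT) and lung (432 CPM in KO, 434 CPM in WT). Among WT groups, soleus and spleen overlapped. The other 3 muscles were near the bottom of the order, between 30.4 and 55.5 CPM in KO and between 36.2 and 46.0 CPM in WT, and their ranges overlapped with that of heart or with each other. Tpm4, a cytoplasmic tropomyosin, was highest in lung (414 CPM in KO and in WT) and spleen (285 CPM in KO and in WT). It stayed between 17.0 and 33.7 CPM in the means of the 4 muscles of both genotypes.

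**Figure D1:**
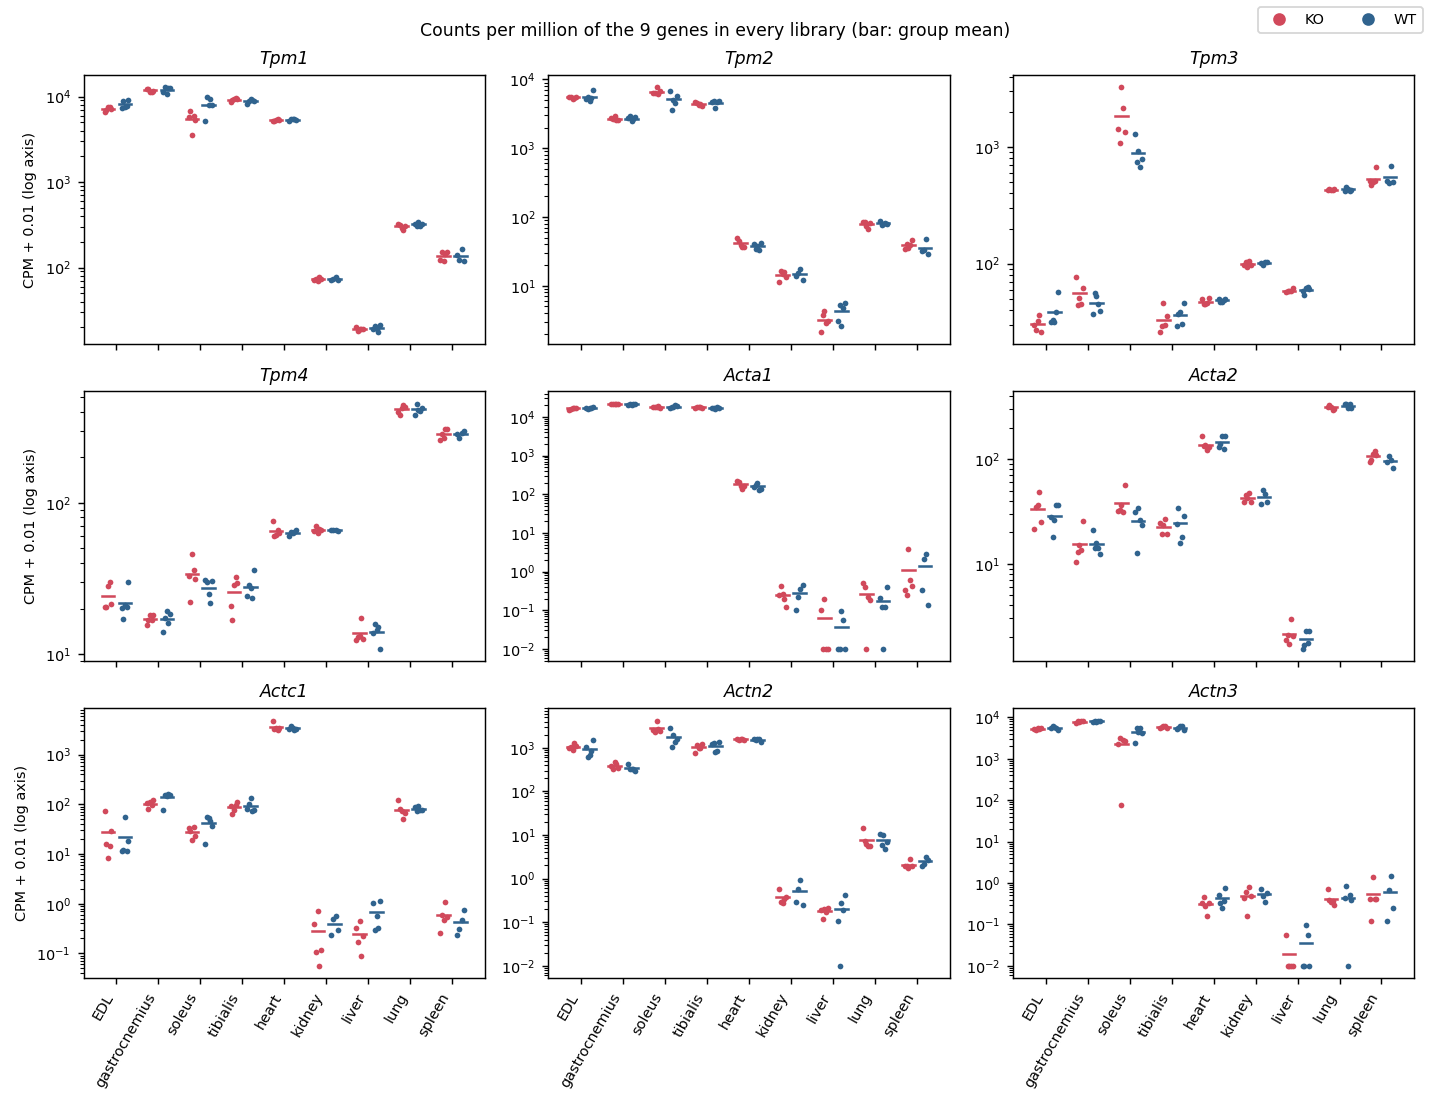
Levels in CPM (log axis, with 0.01 added) of each gene in every library, by tissue, with KO libraries left of WT libraries and a bar at each group mean. Tpm3 stands highest in soleus, Actc1 in heart and Acta2 in lung, and Actn3 is at 1.43 CPM or less outside the 4 muscles.

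Acta1, the actin of adult skeletal muscle, averaged 21461 CPM in KO and 21283 CPM in WT gastrocnemius, above every other tissue and with no overlap with the next one in either genotype. The means of the other 3 muscles lay between 16698 and 17880 CPM in KO and between 16930 and 18522 CPM in WT. Heart held 180 CPM in KO and 159 CPM in WT mice. In kidney, liver and lung no library exceeded 0.503 CPM.

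Actc1 was highest in heart, at 3614 ± 704 CPM in KO and 3412 ± 269 CPM in WT mice (SD, n = 5 each). Gastrocnemius came next (102 CPM in KO, 139 CPM in WT), followed by tibialis (89.3 and 94.1 CPM) and then lung (78.5 and 81.4 CPM), each overlapping with the next. EDL and soleus were the lowest muscles, with overlapping ranges.

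Acta2 was highest in lung (312 CPM in KO, 326 CPM in WT), then heart (138 and 146 CPM) and spleen (107 and 95.5 CPM), with no overlap between these tissues. The muscles held between 15.4 and 37.7 CPM in KO and between 15.5 and 28.9 CPM in WT, and liver was lowest (2.11 CPM in KO, 1.89 CPM in WT). The RPKM of Acta2 cannot be compared between libraries. Divided by CPM per annotated exonic kilobase, it ranged over 1.0 to 1.86 across the libraries, which included the full range within the 4 WT kidney libraries.

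Actn2 was highest in soleus (2842 ± 788 CPM in KO, 1764 ± 700 CPM in WT; SD, n = 5 each), followed by heart (1553 CPM in KO, 1521 CPM in WT). The WT groups of soleus and heart overlapped, and the KO groups did not. Gastrocnemius had the lowest Actn2 of the muscles (391 CPM in KO, 341 CPM in WT) and the highest Actn3 (7972 CPM in KO, 8093 CPM in WT). Soleus had the lowest Actn3 of the muscles (2226 ± 1246 CPM in KO, 4497 ± 1303 CPM in WT; SD, n = 5 each). Heart held 0.302 CPM of Actn3 in KO and 0.432 CPM in WT mice, levels whose ranges overlapped with those in lung.

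Within a family, per length and as a share of the summed RPKM, Acta1 made 99.1 to 99.9% of the 3 actins in the muscle libraries. Actc1 was 92.4 ± 0.756% of the actins in KO heart and 92.5 ± 0.595% in WT heart, with Acta1 at 4.19% and 3.90% (SD, n = 5 each). In lung Acta2 made 80.2% in KO and 79.6% in WT, and Actc1 19.7% and 20.4%. With the annotated exonic length in place of the deposited RPKM, the lung share of Actc1 became 31.1% in KO and 31.6% in WT. Heart used almost solely Tpm1 (98.3% of tropomyosin RPKM in KO and in WT) and Actn2 (at least 99.9% of the 2 actinins in every library).

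Gastrocnemius was the muscle with the largest share of Tpm1, 83.2% in KO and 83.6% in WT, and of Actn3, 95.4% in KO and 96.0% in WT. In EDL, Tpm1 made 60.6% in KO and 62.9% in WT and Tpm2 39.2% and 36.8%. Tpm3 was at most 0.503% of tropomyosin RPKM in each library of EDL, gastrocnemius and tibialis, with group means of 0.151 to 0.324% in KO and 0.174 to 0.253% in WT. With the annotated exonic length in place of the deposited RPKM, those means became 0.343 to 0.524% in KO and 0.379 to 0.428% in WT.

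Over the 18 group means, the log2 profile of each member was compared with those of 13125 genes that reached 10 CPM in at least 1 group. Pearson's r describes likeness only, since the tissues dominate it and all values of a group come from the same libraries. The profile of Tpm1 was most like those of Myom1 (r = 0.995), Ppp1r12b (0.994) and Vwa7 (0.993), and that of Tpm2 most like Ip6k3 (0.987), Usp47 (0.986) and Pde4d (0.986). Tpm4 was nearest to Msn (0.995), Jdp2 (0.995) and Med30 (0.992). Acta1 was nearest to Myot (0.998), Asb5 (0.998) and Clcn1 (0.997), and Acta2 to Myh11 (0.994), Dcbld2 (0.992) and Sept8 (0.987). For Actn2 the nearest profiles were Ckmt2 (0.995), Itgb1bp2 (0.994) and Lmod2 (0.993), and for Actn3 they were Cacng1, Myoz1 and Mylk2 (0.999 each). The nearest genes of Tpm3 and Actc1 were less alike. For Tpm3 they were Xpo4 (0.948), 4930511M06Rik (0.878) and Alg6 (0.820), and for Actc1 Popdc2 (0.962), Abcc8 (0.931) and 6030419C18Rik (0.902).

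The targeted gene matched the labels. In muscle, Cdh15 averaged 1.4 to 2.93 CPM in KO and 15.1 to 19.1 CPM in WT mice. It fell in KO EDL (log2 fold change −2.71), gastrocnemius (−2.92), soleus (−2.77) and tibialis (−3.41), with adjusted p = 1.33e-07, 5.18e-09, 0.000161 and 8.95e-07 in edgeR's quasi-likelihood test. Cdh15 was the single gene that passed in each of the 4 muscles at an adjusted p under 0.05, with Benjamini-Hochberg adjustment over all genes tested.

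The soleus libraries differed among themselves in their fibre type markers. Mouse soleus is known for slow fibres with Myh7 and fast oxidative fibres with Myh2. Its defining marker Myh7 averaged 5379 CPM in KO and 2757 CPM in WT soleus, against at most 205 CPM in any library of the other muscles. Myh4, the myosin of the fastest fibres, was nevertheless at 27368 to 38378 CPM in 4 KO libraries and at 28331 to 65547 CPM in the 5 WT libraries. In the remaining KO library, from mouse 3805666, Myh4 was at 89.7 CPM. Whether fibres of neighbouring fast muscles were part of the soleus samples was not tested, so that soleus levels, shares and contrasts are those of the tissue as sampled. That library also had the highest summed slow fibre markers of the KO group (25479 CPM, group median 12742 CPM) and the lowest summed fast markers (42551 CPM, group median 84187 CPM). In the WT group the library from mouse 3793543 had the highest slow sum (10671 CPM, group median 6593 CPM) and the lowest fast sum (89190 CPM, group median 121531 CPM).

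Between KO and WT soleus, 10 of 10 slow fibre markers had a positive fold change (median log2 0.95) and 2 of 10 fast fibre markers did (median −0.45). In the test, 0 of either list passed. Within the fast list, Myh4 averaged 25833 CPM in KO and 51688 CPM in WT soleus. Myh2 (8427 and 4622 CPM) and Myh1 (8602 and 7583 CPM) averaged higher in KO, with overlapping ranges. All 10 genes of each list were detected. The summed slow markers ranged over 8890 to 25479 CPM in KO and 5597 to 10671 CPM in WT, and the summed fast markers over 42551 to 101847 CPM in KO and 89190 to 131784 CPM in WT. The part of fibre type composition in the KO and WT soleus values below was not tested, and each member's fold change is also given without each of these 2 libraries. The sums of the other marker lists overlapped between the genotypes. Smooth muscle markers summed to 2955 to 3293 CPM in KO and 2717 to 3206 CPM in WT. That list includes Des and Synpo2, also counted among the Z-disc partners below, so its sum does not measure smooth muscle alone. Of its genes, Myh11 averaged 49.3 CPM in KO and 37.8 CPM in WT soleus, with overlapping ranges. Tagln averaged 26.8 and 19.0 CPM and Cnn1 0.916 and 0.585 CPM, also with overlapping ranges. Fibroblast markers summed to 1434 to 2524 and 1607 to 2724 CPM, and endothelial markers to 191 to 414 and 152 to 311 CPM. Macrophage markers summed to 41.6 to 104 CPM in KO and 33.2 to 59.6 CPM in WT, and adipocyte markers to 208 to 629 and 190 to 478 CPM. Markers of embryonic or regenerating fibres summed to 73.5 to 141 CPM in KO and 63.5 to 76.8 CPM in WT.

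In soleus, where the KO and WT values of the members lay furthest apart, none of the 9 passed the test, and no member's KO and WT libraries were fully separate. Of 12965 genes tested, 1 passed (0.00771%), which was Cdh15. Groups that did not overlap were seen for 3.3% of 12052 genes that averaged at least 1 CPM in soleus. At an unadjusted p under 0.05 the test gave 2235 genes (17.2%) and 4 of the 9 members, namely Tpm1, Tpm2, Tpm3 and Actn2. The median log2 fold change was 0.23 over the members and 0.02 over all genes, with 5 of 9 members positive.

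Tpm3 stood at 1091, 1341, 1437, 2142 and 3287 CPM in the KO soleus libraries, against 672, 749, 789, 918 and 1305 CPM in the WT libraries. The highest KO value was that of mouse 3805666 and the highest WT value that of mouse 3793543, and the WT library of that mouse was the one that overlapped with the KO range. The log2 fold change was 1.004 (SE 0.278), with an adjusted p of 0.238 in edgeR's quasi-likelihood test. Without the KO library it was 0.71 (SE 0.21; edgeR, adjusted p = 0.363), and without the WT library 1.16 (edgeR, adjusted p = 0.114). DESeq2's Wald test gave 0.99 with an adjusted p of 0.0221, and called Tpm3 as the only member among 142 genes (1.1%).

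For Tpm1 the KO soleus libraries had 3555, 5266, 5828, 5988 and 6711 CPM and the WT libraries 5131, 7865, 7870, 9482 and 9813 CPM. Again mouse 3805666 was at the end of the KO range, here the lowest, and mouse 3793543 was the lowest WT value and the only one among the KO values. The log2 fold change was −0.60 (SE 0.21; edgeR, adjusted p = 0.239), and it was −0.47 without that KO library (adjusted p = 0.390 in edgeR) and −0.73 without that WT library (adjusted p = 0.127 in edgeR).

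Tpm2 had 6067, 6253, 6419, 6782 and 7814 CPM in KO soleus and 3607, 4509, 5056, 5732 and 6702 CPM in WT soleus. The 5 KO values lay above 4 of the 5 WT values. Its log2 fold change was 0.33 (SE 0.15; edgeR, adjusted p = 0.288), 0.28 without the KO library of mouse 3805666 and 0.43 without the WT library of mouse 3793543. Tpm4 lay between 22.2 and 46.0 CPM in KO and between 21.7 and 31.0 CPM in WT, with a log2 fold change of 0.23 (SE 0.14; edgeR, adjusted p = 0.395), 0.11 without that KO library and 0.26 without that WT library.

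**Figure D2:**
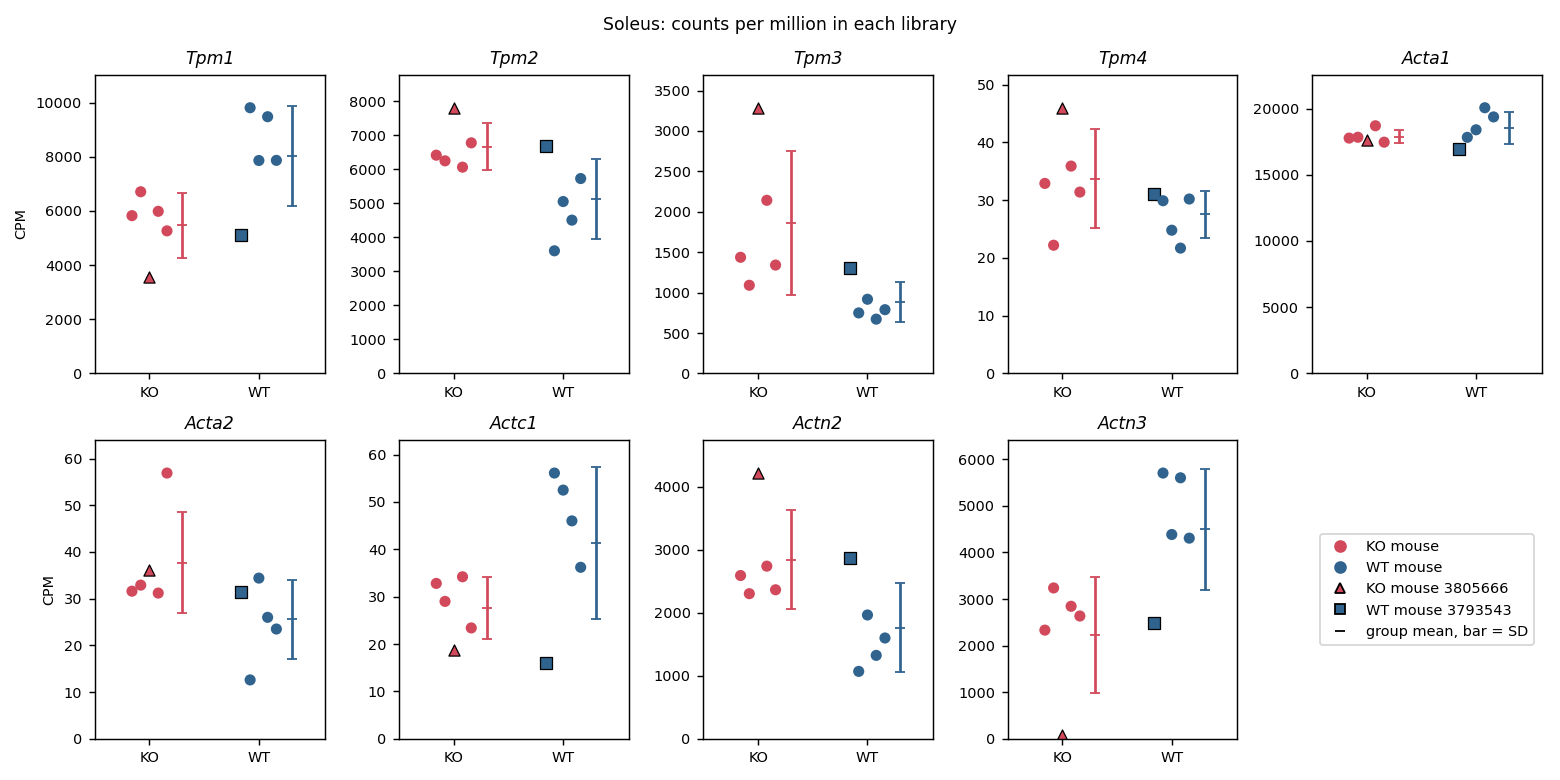
Levels in CPM (linear axis from 0, a scale of its own per gene) of the 9 genes in each soleus library, KO left of WT, with the group mean and SD beside the points. The KO library of mouse 3805666 has the highest Tpm3 (3287 CPM) and Actn2 (4216 CPM) and the lowest Actn3 (75.5 CPM), and the WT library of mouse 3793543 has the highest Tpm3 of its group (1305 CPM).

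Among the actins of soleus, Acta1 had 17460, 17643, 17768, 17832 and 18699 CPM in KO and 16963, 17826, 18396, 19367 and 20059 CPM in WT. The groups overlapped throughout, and the log2 fold change was −0.10 (SE 0.10; edgeR, adjusted p = 0.612). It was −0.09 without the KO library of mouse 3805666 and −0.15 without the WT library of mouse 3793543. Actc1 had 18.7, 23.4, 29.0, 32.8 and 34.2 CPM in KO and 15.9, 36.2, 46.0, 52.5 and 56.1 CPM in WT. A single WT library, that of mouse 3793543, lay below the KO values and the other 4 above them. Its log2 fold change was −0.64 (SE 0.31; edgeR, adjusted p = 0.308), −0.85 without that library (edgeR, adjusted p = 0.114) and −0.52 without the KO library (edgeR, adjusted p = 0.558). Acta2 had 31.2 to 56.9 CPM in KO and 12.6 to 34.4 CPM in WT, with a log2 fold change of 0.50 (SE 0.26; edgeR, adjusted p = 0.33), 0.53 without the KO library and 0.57 without the WT library. It was 0.31 without the KO library of mouse 3817943, the highest of its group, and 0.32 without the WT library of mouse 3793553 (edgeR, adjusted p = 0.532 and 0.451).

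Of the actinins, Actn2 stood at 2302, 2364, 2590, 2739 and 4216 CPM in KO soleus and at 1069, 1323, 1599, 1964 and 2867 CPM in WT soleus. The highest KO library was again mouse 3805666, and the WT library of mouse 3793543 was the only WT value inside the KO range. The log2 fold change was 0.63 (SE 0.25; edgeR, adjusted p = 0.251), 0.46 without the KO library (adjusted p = 0.482 in edgeR) and 0.86 without the WT library (adjusted p = 0.114 in edgeR).

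Actn3 stood at 75.5, 2333, 2636, 2845 and 3239 CPM in KO soleus and at 2482, 4308, 4386, 5604 and 5706 CPM in WT soleus. Mouse 3805666 had the 75.5 CPM, below every other library of the 4 muscles. The log2 fold change was −1.05 (SE 0.69; edgeR, adjusted p = 0.435). Without that library it was −0.74 with a smaller error (SE 0.23; edgeR, adjusted p = 0.363), and without the WT library of mouse 3793543 it was −1.21 (edgeR, adjusted p = 0.382).

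As shares of family RPKM in soleus, Tpm3 made 8.73, 11.8, 12.3, 16.9 and 26.0% of tropomyosin in KO and 4.92, 5.91, 6.08, 7.25 and 11.7% in WT. The shares overlapped only through the WT library of mouse 3793543. Tpm1 averaged 42.4 ± 8.99% in KO and 60.5 ± 11.6% in WT, and Tpm2 42.3 ± 3.77% in KO and 32.2 ± 9.20% in WT (SD, n = 5 each). Actn3 was 1.75% of the actinins in KO mouse 3805666 and 47.7 to 58.7% in the other KO mice, against 46.7 to 84.4% in WT mice. No test was made on these shares.

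**Figure D3:**
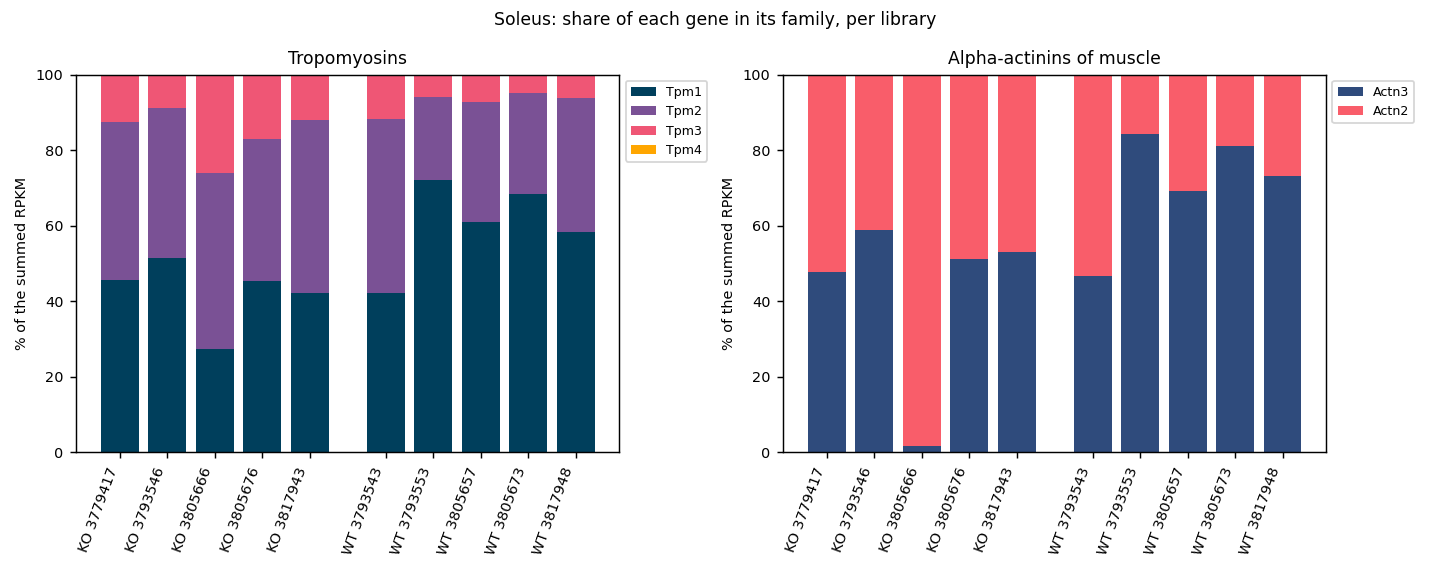
Stacked bars give the share (%) of each gene in the summed RPKM of its family, tropomyosins on the left and actinins on the right, for each soleus library, KO left of WT. The Tpm3 share runs over 8.73 to 26.0% in KO and 4.92 to 11.7% in WT, and Actn3 is at 1.75% in 1 KO library.

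The other genes of the thin filament and Z-disc gave 0 called genes between KO and WT soleus. Among 19 tested thin filament partners (troponins, nebulin, tropomodulins, leiomodins, capping proteins and the like), the fold change was above 0 for 10 (median 0.10 on the log2 scale). The 2 of smallest p were Tnni1 and Tnnt1, the inhibitory and tropomyosin-binding troponins of slow fibres, at 1.01 (SE 0.27) and 0.998 (SE 0.267), adjusted p = 0.238 each in edgeR. Of 18 Z-disc partners 11 were positive (median 0.06), with Pdlim3, an alpha-actinin binding protein, at −0.50 (SE 0.13) and Myoz2, a Z-disc protein of slow and cardiac fibres, at 0.82 (SE 0.24), adjusted p = 0.238 each in edgeR. All 5 other actins and actinins were positive (median 0.31), with the cytoplasmic actin Actg1 at 0.32 (edgeR, adjusted p = 0.238) and the non-muscle actinin Actn1 at 0.31 (edgeR, adjusted p = 0.248). Of 10 regulators of the serum response factor pathway 4 were positive (median −0.10), with Mef2d at −0.27 (edgeR, adjusted p = 0.238) and Srf at −0.28 (edgeR, adjusted p = 0.239). Without the KO library of mouse 3805666 Tnni1 was at 0.71, Tnnt1 at 0.72 and Myoz2 at 0.58 (edgeR, adjusted p between 0.363 and 0.370). In DESeq2's Wald test Tnni1, Tnnt1, Pdlim3 and Myoz2 passed (adjusted p = 0.0188, 0.0191, 0.0227 and 0.0365).

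In the other tissues none of the members passed, and no member's KO and WT libraries were separate. Groups that did not overlap were seen for 0.498% of genes in EDL, 0.379% in gastrocnemius, 0.347% in tibialis, 0.423% in heart, 1.14% in kidney, 0.235% in liver, 0.401% in lung and 0.316% in spleen. The share of tested genes that passed edgeR's adjusted threshold was 0.00777% in EDL, 0.00792% in gastrocnemius, 0.0081% in tibialis and 0% in heart, kidney, liver, lung and spleen. At an unadjusted p under 0.05 edgeR gave 590 genes in EDL (4.58%), 246 in gastrocnemius (1.95%), 219 in tibialis (1.77%), 421 in heart (3.13%), 478 in kidney (3.35%), 194 in liver (1.57%), 313 in lung (2.06%) and 118 in spleen (0.846%). No member was among them.

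In EDL the members of smallest p were Tpm1 and Tpm3. Tpm1 had 6607, 6959, 7235, 7448 and 7628 CPM in KO and 7373, 7563, 7678, 8805 and 9035 CPM in WT, a log2 fold change of −0.19 (SE 0.10; edgeR, adjusted p = 0.986). The 2 lowest WT values lay within the KO range. Tpm3 in EDL had 26.1 to 36.6 CPM in KO and 31.7 to 57.6 CPM in WT, a log2 fold change of −0.36 (SE 0.19; edgeR, adjusted p = 0.986). Without the WT library of mouse 3817948, which held the 57.6 CPM, it was −0.14 (edgeR, adjusted p = 0.707). The other 7 members lay between −0.09 (Actn3) and 0.35 (Actc1).

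In gastrocnemius the smallest p was that of Actc1, with 80.6, 95.3, 105, 109 and 122 CPM in KO and 76.7, 144, 157, 157 and 162 CPM in WT. The 4 upper WT values lay above all KO values and the lowest, from mouse 3793543, below them. Its log2 fold change was −0.43 (SE 0.20; edgeR, adjusted p = 1). Actn2 was at 0.21 (SE 0.12; edgeR, adjusted p = 1), and the other 7 members lay between −0.02 (Tpm1) and 0.29 (Tpm3). In tibialis Tpm1 (0.06, SE 0.05) and Acta1 (0.07, SE 0.05) had the smallest p, with adjusted p = 1 each in edgeR, and the other 7 members lay between −0.10 (Actn2) and 0.05 (Actn3).

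In heart 8 members were tested, with log2 fold changes between −0.07 and 0.17, and Actn3 did not reach the filter on low counts. Tpm2 had 36.5, 37.1, 39.5, 44.5 and 49.9 CPM in KO and 33.6, 34.2, 37.9, 40.4 and 42.3 CPM in WT heart, at 0.15 (SE 0.08; edgeR, adjusted p = 0.999). These values overlapped. Acta1 had 138 to 219 CPM in KO and 131 to 201 CPM in WT heart, at 0.17 (SE 0.16; edgeR, adjusted p = 0.999).

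In kidney 6 members were tested (log2 fold changes −0.12 to −0.03), in liver 5 (−0.42 to 0.12), in lung 7 (−0.08 to 0.05) and in spleen 6 (−0.27 to 0.12). Acta1 did not reach the filter in kidney, liver, lung or spleen, nor did Actc1 in kidney, liver and spleen, Actn2 in kidney and liver, or Actn3 in liver, lung and spleen. The members of smallest p were Tpm3 (−0.07) and Tpm1 (−0.04) in kidney, Tpm2 (−0.42, SE 0.23) and Acta2 (0.12, SE 0.19) in liver, Tpm1 (−0.08, SE 0.05) and Acta2 (−0.07, SE 0.05) in lung, and Actn2 (−0.27, SE 0.24) and Acta2 (0.12, SE 0.11) in spleen.

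**Figure D4:**
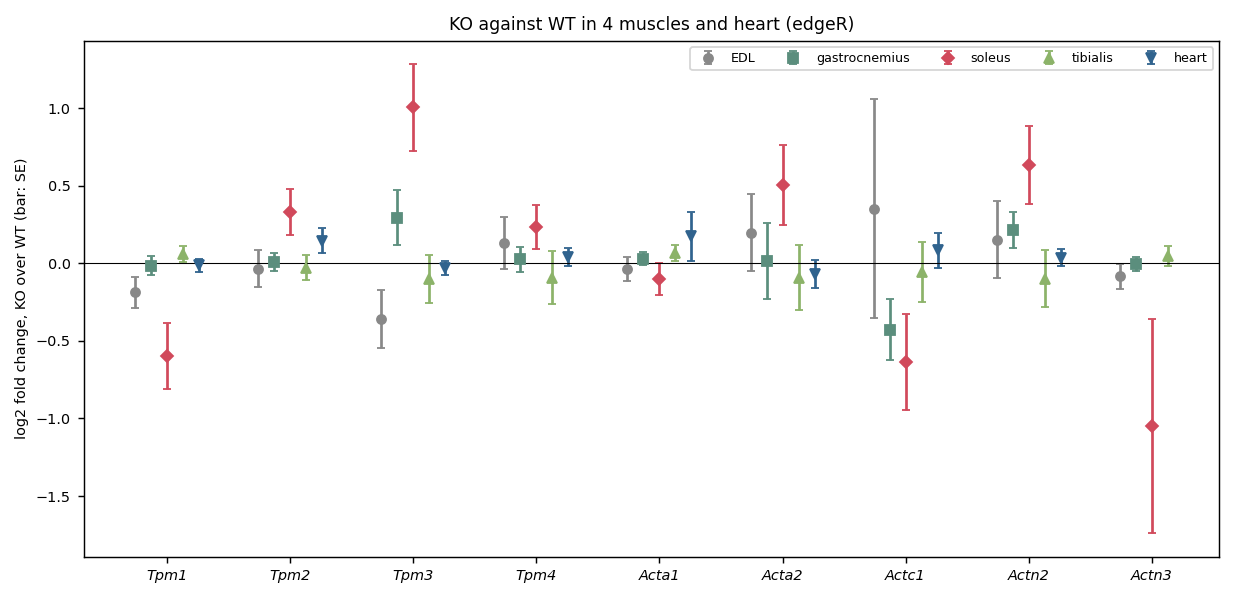
Points are log2 fold changes of KO over WT for each gene in the 4 muscles and heart, with bars of 1 SE (edgeR). Soleus values run over −1.05 to 1.004, and in heart the 8 tested genes lie between −0.07 and 0.17.

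The lists of partner genes likewise held 0 called genes between KO and WT in EDL, gastrocnemius, tibialis and heart. Of thin filament partners 6 of 19 were positive in EDL, 11 of 18 in gastrocnemius, 4 of 18 in tibialis and 12 of 17 in heart. Of Z-disc partners 7 of 18 were positive in EDL, 15 of 18 in gastrocnemius, 4 of 18 in tibialis and 8 of 16 in heart. The other actins and actinins had 2 of 5 positive in EDL and in gastrocnemius, 1 of 4 in tibialis and 4 of 5 in heart. Regulators of the serum response factor pathway had 2 of 9, 4 of 9, 5 of 9 and 4 of 10 positive in the same tissues. The list medians lay between −0.09 and 0.04 on the log2 scale in these tissues, where the medians of all genes lay between −0.01 and 0.00.

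With the 4 muscles of each mouse averaged on the log2 scale, 0 of 9 members passed in limma. Among 13534 genes 1 passed (0.00739%), and at an unadjusted p under 0.05 there were 648 genes (4.79%) and 2 members. Actn2 was at 0.27 (SE 0.12), Tpm1 at −0.18 (SE 0.08), Tpm3 at 0.20 (SE 0.09) and Actn3 at −0.44 (SE 0.25), with limma's adjusted p = 0.984 for each. Without KO mouse 3805666 Actn3 was at −0.18 and Tpm3 at 0.12 (limma, adjusted p = 1 each). The remaining members lay between −0.18 (Actc1) and 0.17 (Acta2). With counts summed over the muscles, which gives soleus most of the Tpm3 counts, edgeR put Tpm3 at 1.18 (adjusted p = 0.381). Of the partner lists, 0 genes passed, with 5 of 19 thin filament partners and 11 of 18 Z-disc partners positive. The genes of smallest p were Tnnt3 (−0.15), Tnni2 (−0.13), Myoz1 (−0.18), Pdlim7 (−0.09), Actg1 (0.13), Actg2 (0.16), Mef2d (−0.08) and Myocd (0.38), each with limma's adjusted p = 0.984.

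Whether the KO and WT difference in soleus was unlike that in the other 3 muscles was tested as an interaction. None of 13534 genes passed (0%), while 2225 genes (16.4%) and 5 of 9 members had an unadjusted p under 0.05. For Tpm3 the difference of differences was 1.06 (SE 0.26; edgeR, adjusted p = 0.0748) and for Tpm1 −0.54 (SE 0.15; edgeR, adjusted p = 0.0887). Tpm2 was at 0.36, Actn3 at −1.02 and Actn2 at 0.55, with adjusted p = 0.16, 0.227 and 0.288 in edgeR. The 4 muscles came from the same animals, so the mouse was also fitted as a block. Tpm3 (0.996, adjusted p = 0.0347) and Tpm1 (−0.54, adjusted p = 0.0291) then passed in edgeR, among 591 of 13534 genes. DESeq2's Wald test called the same 2 members (Tpm3 1.04, adjusted p = 0.0121, and Tpm1 −0.55, adjusted p = 0.0303) among 234 genes (1.73%). Without KO mouse 3805666 and without the block, edgeR's adjusted p was 0.295 for Tpm3 (0.81) and 0.357 for Tpm1 (−0.42). Without WT mouse 3793543, Tpm3 (1.32, edgeR adjusted p = 0.0178), Tpm1 (−0.63, edgeR adjusted p = 0.0193) and Tpm2 (0.48, edgeR adjusted p = 0.0429) passed. Without KO mouse 3793546, Tpm3 (1.14, edgeR adjusted p = 0.0261) and Tpm1 (−0.66, edgeR adjusted p = 0.0275) did. The range of genes called over these leave-one-out fits is given with the processing results below.

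Soleus was then set against the mean of EDL, gastrocnemius and tibialis within each genotype. The KO and WT comparisons share no libraries. In WT mice 2 members rose and 2 fell, where 20.5% of 13172 genes passed (12.8% rose and 7.7% fell). Tpm3 rose to 672 to 1305 CPM in soleus, against 29.1 to 57.6 CPM in the other muscles, with no overlap. Its log2 fold change was 4.37 (SE 0.15; a 20.7-fold level; edgeR, adjusted p = 2.04e-13). Actn2 rose by 1.21 (SE 0.21; edgeR, adjusted p = 0.00038) and Actn3 fell by 0.60 (SE 0.13; edgeR, adjusted p = 0.00172). Tpm1 fell by 0.35 (SE 0.11; edgeR, adjusted p = 0.0304), but not without WT mouse 3793543 (−0.24, adjusted p = 0.109 in edgeR), 3805657 (adjusted p = 0.0719) or 3817948 (adjusted p = 0.118). Mean Tpm1 in WT soleus (8032 CPM) was near that in EDL (8091 CPM), with tibialis at 8913 CPM and gastrocnemius at 12054 CPM. Tpm4 was at 0.24 (edgeR, adjusted p = 0.164) and passed with the mouse as a block (edgeR, adjusted p = 0.0375) or without WT mouse 3817948 (edgeR, adjusted p = 0.0147). Tpm2 (0.22, adjusted p = 0.179), Actc1 (−0.76, adjusted p = 0.145), Acta1 (−0.08, adjusted p = 0.358) and Acta2 (0.11, adjusted p = 0.761) did not pass in edgeR, although Tpm2 did without WT mouse 3793553 (0.35, adjusted p = 0.0471).

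In KO mice all 9 members passed, where 53.6% of 13149 genes did (27.4% rose in soleus and 26.3% fell). Tpm3 rose to 1091 to 3287 CPM in KO soleus, against 25.9 to 76.8 CPM in the other KO muscles, a log2 fold change of 5.42 (SE 0.18; edgeR, adjusted p = 1.61e-13). Actn2 rose by 1.74, Tpm2 by 0.56, Acta2 by 0.57 and Tpm4 by 0.44 (edgeR, adjusted p = 1.61e-10, 9.69e-08, 0.0169 and 0.00549). Actn3 fell by 1.64, Actc1 by 1.36, Tpm1 by 0.90 and Acta1 by 0.21 (edgeR, adjusted p = 0.00696, 0.00466, 7.57e-07 and 0.00341). The falls of Acta1 and Actc1 were not seen against each muscle. Mean Acta1 in KO soleus (17880 CPM) was above KO EDL (16698 CPM) and tibialis (17520 CPM) and below gastrocnemius (21461 CPM). Mean Actc1 in KO soleus (27.6 CPM) was near that in KO EDL (27.8 CPM), with tibialis at 89.3 CPM and gastrocnemius at 102 CPM. Without KO mouse 3805666 Tpm3 was at 5.17, Actn2 at 1.58 and Actn3 at −1.33 in edgeR. The Acta2 call was lost without KO mouse 3793546 (adjusted p = 0.0536 in edgeR) or 3805666 (adjusted p = 0.0622). The interaction above is the test of whether these contrasts differ between the genotypes.

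Of partner genes in WT soleus against the other WT muscles, 7 of 19 thin filament partners rose and 8 fell. The slow troponin genes Tnni1 (5.84, adjusted p = 1.03e-11) and Tnnc1 (5.74, adjusted p = 2.17e-11) had the smallest p in edgeR. Of 18 Z-disc partners 3 rose and 5 fell, with Myoz2 at 3.38 and Pdlim1 at 2.11 among the risers. None of the 5 other actins and actinins passed, with Actn4 at 0.21 (edgeR, adjusted p = 0.121) and Actg2 at −0.72 (edgeR, adjusted p = 0.159). Of 9 regulators of the serum response factor pathway 2 fell, Mkl2 (−0.28, adjusted p = 0.00413 in edgeR) and Mef2a (−0.24, adjusted p = 0.0265 in edgeR). The Mef2a call was lost without WT mouse 3793543, 3805657 or 3805673 (adjusted p = 0.196, 0.0681 and 0.0642 in edgeR). The list medians lay between −0.15 and 0.11, against 0.00 over all genes.

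Heart was set against the mean of the 4 muscles, where 80% of 13833 genes passed in WT mice and 80.9% of 13793 in KO mice, the background for the counts that follow. In WT mice 4 members rose (40.8% of genes did) and 5 fell (39.2%), and in KO mice the same number rose (41.5%) and fell (39.4%). Actc1 rose to 3093 to 4849 CPM in KO heart, against 8.32 to 122 CPM in KO muscles, and to 3183 to 3842 CPM in WT heart, against 11.5 to 162 CPM in WT muscles. Its log2 fold change was 5.81 in KO mice and 5.52 (SE 0.25) in WT mice (edgeR, adjusted p = 3.09e-15 and 5.8e-15). Acta2 rose by 2.10 in KO and 2.32 in WT mice, and Tpm4 by 1.10 in KO and 1.12 in WT mice.

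Acta1 fell by 6.99 on the log2 scale in KO heart and by 7.19 in WT heart, and Tpm2 by 7.10 in KO and 7.19 in WT. Tpm3 fell by 1.41 in KO and 1.18 in WT heart, and Tpm1 by 0.93 in KO and 1.11 in WT. Each of these passed in edgeR, the largest adjusted p being 2.48e-07. For Tpm3 only soleus stood far above heart in mean CPM. KO heart averaged 47.4 CPM of Tpm3, against 30.4 to 55.5 CPM in KO EDL, gastrocnemius and tibialis and 1859 CPM in KO soleus. WT heart averaged 48.6 CPM, against 36.2 to 46.0 CPM in the same WT muscles and 887 CPM in WT soleus. Actn3 fell to 0.148 to 0.456 CPM in KO heart and 0.243 to 0.735 CPM in WT heart, with a lowest count of 2.02 in a KO library, so that its fitted fold depends on the prior count and is not given. Actn2 rose by 0.25 in KO heart (edgeR, adjusted p = 0.0359) and by 0.43 in WT heart (edgeR, adjusted p = 0.0429). Without the filter on low counts neither call held (adjusted p = 0.0523 in KO and 0.0793 in WT, edgeR). The KO call was lost without mouse 3779417, 3793546 or 3805676 (adjusted p between 0.0647 and 0.0970 in edgeR) and the WT call without mouse 3793553, 3805657 or 3805673 (adjusted p between 0.108 and 0.160 in edgeR). Mean Actn2 in heart (1553 CPM in KO, 1521 CPM in WT) lay below soleus (2842 and 1764 CPM) and above the other muscles.

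Partners of the thin filament in WT heart rose for 5 of 20 and fell for 15, with the cardiac troponin genes Tnni3 at 13.02 and Tnnt2 at 10.95. Of 18 Z-disc partners 3 rose and 14 fell, with the calsarcin genes Myoz3 at −8.76 and Myoz1 at −13.11. All 5 other actins and actinins rose, with Actn1 at 1.68 and Actn4 at 0.99. Of 10 regulators of the serum response factor pathway 1 rose, the cardiac and smooth muscle coactivator Myocd (7.03), and 6 fell, with Mef2c at −3.35. The list medians were −1.75, −1.63, 0.99 and −0.47, against 0.03 over all genes.

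**Figure D5:**
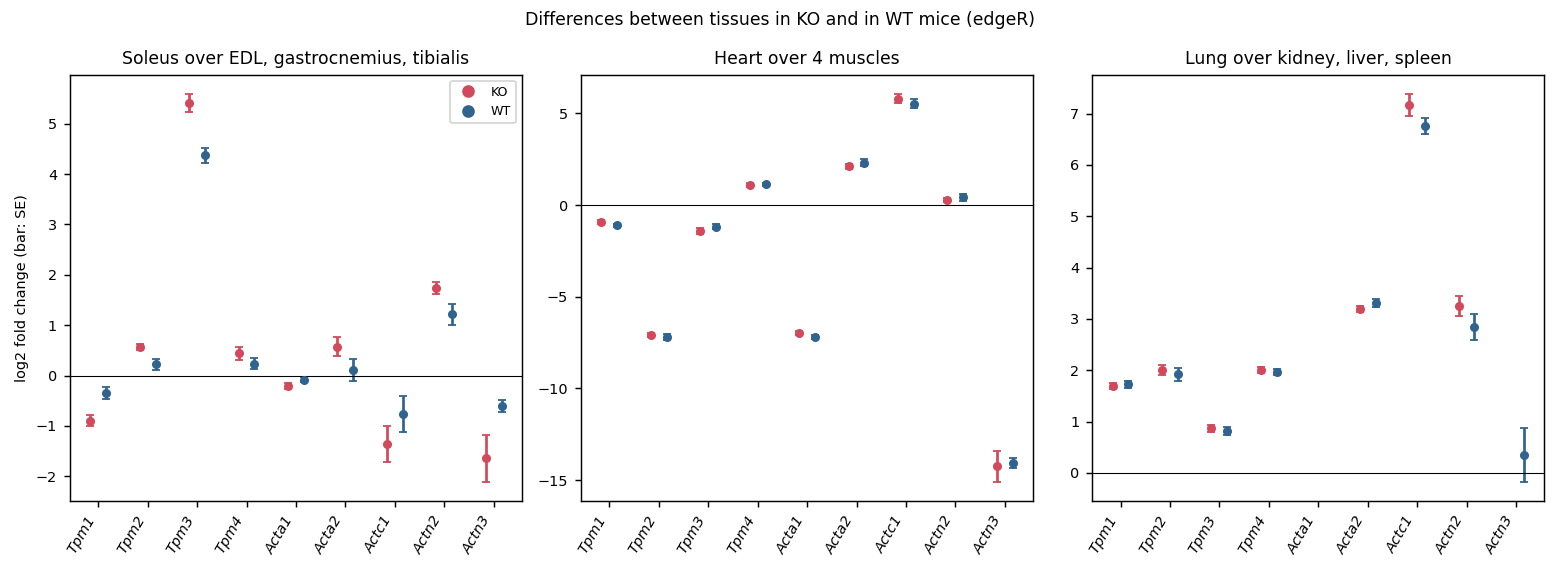
Log2 fold changes of the genes tested (edgeR, bars of 1 SE) for soleus against the other 3 muscles, heart against the 4 muscles and lung against kidney, liver and spleen, KO left of WT in each panel. Acta1 was not tested in lung, nor Actn3 in KO lung, and the Actn3 fold in heart depends on the prior count. Tpm3 is at 5.42 in KO and 4.37 in WT soleus, Actc1 at 5.81 in KO and 5.52 in WT heart, and Acta2 at 3.20 in KO and 3.30 in WT lung.

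Lung was set against the mean of kidney, liver and spleen, where 80.4% of 16252 genes passed in KO mice (40.7% rose and 39.7% fell) and 79.6% of 16356 in WT mice (40% rose and 39.6% fell). All 7 members tested rose in KO lung and 7 of 8 in WT lung, the exception being Actn3 (0.35, SE 0.52; edgeR, adjusted p = 0.547). Acta2 rose by 3.20 in KO and 3.30 in WT lung, Tpm2 by 2.01 and 1.92, Tpm4 by 2.01 and 1.97, Tpm1 by 1.69 and 1.73 and Tpm3 by 0.87 and 0.81 on the log2 scale. In edgeR the largest adjusted p among them was 4.86e-09. Tpm3 nevertheless averaged less in lung (432 CPM in KO, 434 CPM in WT) than in spleen (535 and 549 CPM), without overlap. Its level in lung was above kidney (99.3 and 101 CPM) and liver (58.8 and 59.5 CPM). Of 16 thin filament partners tested 12 rose and 3 fell in KO lung, and 11 rose and 2 fell in WT lung, and of 16 Z-disc partners 13 rose and 0 fell in each genotype.

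The cardiac actin Actc1 was also high in lung, at 50.2, 65.9, 74.4, 82.2 and 120 CPM in KO and 72.1, 77.2, 77.6, 87.3 and 92.6 CPM in WT. The 2 groups overlapped, and every lung library was above all kidney, liver and spleen libraries, none of which exceeded 1.14 CPM. Against the 3 organs its log2 fold change was 7.16 in KO and 6.76 in WT lung (edgeR, adjusted p = 7.83e-18 and 1.01e-20), a fit that depends on the low counts in those organs. Actn2 rose with it, by 3.25 in KO and 2.85 in WT lung. Markers of heart muscle cells moved with these genes. Their sum was 180 to 430 CPM in KO lung (median 218 CPM) and 173 to 318 CPM in WT lung (median 281 CPM), with 8 of 9 markers above 1 CPM. Myh6 averaged 127 CPM in KO and 129 CPM in WT lung, Myl7 24.2 and 24.5 CPM, Ryr2 16.9 and 16.5 CPM, Nppa 5.81 and 5.51 CPM and Mybpc3 3.61 and 3.75 CPM. The same markers summed to at most 11.2 CPM in any kidney library, 17.1 CPM in liver and 26.8 CPM in spleen. Their part in the lung levels of Actc1 and Actn2 was not tested. Acta1, the skeletal actin, was at 0.503 CPM or less in every lung library.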

How the data were processed

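RNA-seq of 9 tissues from 5 KO and 5 WT mice was analysed from 2 deposited tables. The first holds expected counts per gene that the authors made (85.54% of the values are whole numbers), and the second holds RPKM values that the authors deposited, with counts scaled by length and library size. The genome build is mm10 per the submitters' processing notes. The aligner and counter are not given in the sources used here. Group and mouse were taken from the labels. The rows of 22 marker sequences (such as reporter genes) stayed out of library sizes and tests.

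Expected counts, not the raw counts first planned for, were rounded to whole numbers. Genes were kept by edgeR's filter (minimum count 10, minimum total 15) and scaled by TMM. They were tested with edgeR 4.0.16 (quasi-likelihood, default prior count) in R 4.3.3, with Benjamini-Hochberg adjustment over all genes tested and a threshold of 0.05. The mean of 4 muscles was tested with limma 3.58.1 on log2 CPM with a prior count of 2, and DESeq2 1.42.0 was an alternative. The scripts were tested on simulated data. CPM are counts scaled to the library's total over all genes. The depth limits the precision of values under about 1 CPM.

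The deposited RPKM is not counts over 1 fixed gene length. Divided by CPM per annotated exonic kilobase, 74.1% of the values of 9125 genes with a mean of 200 counts or more lay within 2% of 1. The members' ratios ranged over 0.571 to 1.25 for Tpm3, 0.877 to 2.15 for Tpm2 and 1.01 to 1.55 for Tpm1. RPKM was therefore used only for shares of a family within a library.

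The muscles of a mouse come from the same animal, which pairs contrasts between tissues: over 60 pairs of muscle libraries from the same mouse, deviations from the group means correlated at a mean r of 0.229, with 49 pairs above 0.1. The main fits have no block for the mouse, and the fit with the block is an alternative. Among 172 replicate pairs none agreed within counting noise (lowest chi-square per gene 5.48).

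The members and gene lists were chosen with earlier results of these data known. The rule for naming genes took all 9 members, Cdh15, for each partner list the 2 genes of smallest p, and for each member the 3 genes of most similar profile. Between KO and WT in tissues other than soleus the 2 members of smallest p are given singly and the others by their range. In EDL, gastrocnemius, tibialis and KO against WT heart the partner lists are given as counts only. Alternatives were other size factors, no filter, DESeq2, age as a covariate, the mouse as a block and leaving out each mouse in turn. Promoters, coding sequences and transcripts were read from RefSeq and GENCODE vM21 on GRCm38.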

Additional observations from a re-analysis of the deposited data

Results flagged for a closer look

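Within each group, the highest or lowest library was compared with its nearest neighbour by Dixon's ratio on CPM. Of 158 combinations of gene, tissue and genotype, 17 had 1 library far from the others, and chance flags about 1 in 20. In KO soleus these were Acta2 in mouse 3817943 (56.9 CPM, next 36.1), Actn2 in mouse 3805666 (4216 CPM, next 2739) and Actn3 in mouse 3805666 (75.5 CPM, next 2333). In the other muscles they were Actc1 in WT EDL mouse 3805657 (56.7 CPM, next 17.9), Actc1 in WT gastrocnemius mouse 3793543 (76.7 CPM, next 144), Tpm2 in WT tibialis mouse 3805657 (3787 CPM, next 4625) and Tpm3 in WT EDL mouse 3817948 (57.6 CPM, next 38.5).

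Actc1 stood apart in KO heart mouse 3779417 (4849 CPM, next 3468). The lung library of that mouse was highest in its group for Actn2 (14.1 CPM, next 7.37) and Actn3 (0.704 CPM, next 0.385). In KO spleen the libraries that stood apart were mouse 3805666 for Acta1 (3.93 CPM, next 0.579) and Actn3 (1.39 CPM, next 0.403), mouse 3805676 for Actn2 (2.80 CPM, next 1.98) and mouse 3817943 for Tpm3 (674 CPM, next 514). WT spleen mouse 3805673 was highest for Tpm3 (685 CPM, next 511). Tpm4 stood apart in KO liver mouse 3805676 (17.4 CPM, next 13.2) and WT kidney mouse 3817948 (65.3 CPM, next 66.1).

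Among the marker sequences that no comparison used, reads assigned to LacZ summed to 709 counts in KO EDL, 636 in KO gastrocnemius, 620 in KO soleus and 323 in KO tibialis, against 3, 0, 0 and 0 in the WT groups. Reads assigned to an SV40 sequence summed to 39, 47, 41 and 23 counts in the same KO groups and to 0 in the WT groups.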

How the results depend on the processing

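The number of called genes moved with the tool. DESeq2's Wald test called 4 genes in EDL, 2 in gastrocnemius, 142 in soleus (1 of them a member, Tpm3) and 4 in kidney, where edgeR called 1, 1, 1 and 0, and without a filter edgeR called 1 in kidney. For the soleus interaction edgeR called 0 of 13534 genes and no member. DESeq2 called 234 and the fit with the mouse as replicate block 591, with 2 members each. The block changed no other call of a member except Tpm4 in WT soleus. Leaving out 1 mouse at a time gave 1 to 2 genes in EDL, gastrocnemius and soleus, 0 to 384 genes and 0 to 3 members in the interaction, and 1498 to 2450 genes for WT soleus against the other muscles, the lowest without mouse 3793543. Acta1 in the mean of 4 muscles (−0.0048) turned sign without WT mouse 3805673 (0.0054) or 3817948 (0.0021), within a range of −0.019 to 0.0054. Acta2 in WT soleus against the other muscles (0.11) turned to −0.091 without WT mouse 3805657, within a range of −0.091 to 0.30. Of the member values not given singly, 54 of 576 turned sign when 1 mouse was left out and 3 of 236 under the other settings, and 0 of these were called. As an alternative chosen after seeing the data, annotated exonic length in place of the deposited RPKM moved the Tpm4 share of soleus tropomyosin to 0.205% in KO and 0.169% in WT (0.141% and 0.113% in deposited RPKM). It also raised the Tpm3 share in EDL to 0.345% in KO and 0.399% in WT (0.154% and 0.198%), and that in tibialis to 0.343% in KO and 0.379% in WT (0.151% and 0.174%). Actn3 in heart and Acta1 in the inner organs rest on few counts, and KO and WT differences there are not detectable at this depth.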

Other observations

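The deposited RPKM of Tpm3 divided by CPM per annotated exonic kilobase was 1.17 to 1.25 in the soleus libraries, and lay at 0.571 to 1.08 in the others. For Acta2 the same ratio was 1.85 to 1.86 in KO heart and 1.63 to 1.86 in WT heart, and 1.0 in each library of EDL, gastrocnemius and tibialis. For Actc1, Actn2 and Actn3 it stayed between 0.999 and 1.04 in all libraries. The effective length that the authors used for a member thus differed between tissues for some members, and also between libraries of 1 group. Within a group the ratio of Acta2 ranged over 1.0 to 1.86 in KO spleen and in WT kidney, and that of Tpm2 over 0.972 to 2.15 in KO lung, 0.973 to 1.76 in KO heart and 1.51 to 2.02 in WT heart. The cause was not tested.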
